A study of Mus musculus with 6 samples.

Results

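Mitochondrial chaperones and proteases keep the proteins of the mitochondrial matrix and inner membrane folded and remove those that are damaged. This account covers 10 of them, 5 folding chaperones (Hspa9, Hspd1, Hspe1, Dnaja3 and Trap1), 3 subunits of matrix proteases (Lonp1, Clpx and Clpp) and 2 inner membrane proteases (Afg3l2 and Yme1l1). They were taken by name from the 23282 rows of the deposited count table, and all 10 were among the 9963 genes with enough counts to be tested. RNA was measured in alveolar macrophages, the resident phagocytes of the air spaces, which had been sorted from mouse lung on CD45, CD11c, F4/80 and SiglecF and against CD11b. The mutant libraries (Sdha-KO, n = 3) came from mice with floxed Sdha and LysM-Cre, a Cre recombinase made under the lysozyme locus in myeloid cells, and the other libraries (WT, n = 3) from wildtype mice. Sdha encodes the catalytic flavoprotein subunit of succinate dehydrogenase, which acts in the TCA cycle and is complex II of the respiratory chain. Strain, age, sex and the number of mice per library are not stated in the labels. The labels repeat the replicate number as a batch, and a batch thus pairs 1 Sdha-KO with 1 WT library (3 pairs). The promoter and cells that drive the Cre limit the model: LysM-Cre also acts in other myeloid cells, and which exons are floxed is not stated.

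Most mitochondrial proteins are made in the cytosol and threaded unfolded into the matrix. There Hspa9 (mortalin, the mitochondrial Hsp70) pulls the chain in and holds it, the barrel of Hspd1 (Hsp60) with its lid Hspe1 (Hsp10) folds it, and Lonp1 and the Clpx-Clpp complex degrade what fails. When unfolded protein builds up in the organelle, cells can raise the transcripts of these genes, a programme called the mitochondrial unfolded protein response, in which the transcription factors Atf5, Atf4 and Ddit3 (CHOP) are known to take part.

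Sdha-KO libraries had more Hspa9 and Hspd1 RNA than WT libraries in all 3 batches, and the other 8 genes overlapped between genotypes. None of the 10 passed the test across all genes with 6 libraries (edgeR quasi-likelihood, Benjamini-Hochberg adjusted p under 0.05). That rule called 5 of 9963 genes, or 0.0502%. The median fitted log2 fold change of the 10 genes was 0.52, against -0.13 over all tested genes, and 6 of the 10 were positive, against 45.0% of all tested genes. On the 4 libraries of batches 2 and 3 the medians were 0.18 for the 10 genes and -0.02 for all tested genes. Read within batches, as log2 ratios of CPM plus 0.5, the medians of the 10 were 0.047, 0.042 and 0.243 in batches 1 to 3, against -0.094, -0.094 and -0.027 for all tested genes. Genes at 0 in both libraries of a batch count as 0 in these medians.

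The libraries set limits that touch every gene below. Total counts ranged from 5400160 to 8472907 per library. Sdha itself was at 26.1, 21.0 and 22.8 CPM (counts divided by the library's size, scaled for composition) in Sdha-KO replicates 1 to 3, against 56.0, 65.5 and 72.2 CPM in WT replicates 1 to 3, a difference that did not pass the test (adjusted p = 1.0), and reads at the 3′ end are a limited check of a deletion elsewhere in the gene. The batch 1 libraries had reads for fewer genes, 5438 in Sdha-KO replicate 1 and 7893 in WT replicate 1, against 11383 to 13050 in the other 4. Of genes averaging 100 to 300 counts in batches 2 and 3, 41.9% had no count in Sdha-KO replicate 1 and 13.7% had none in WT replicate 1. Of the 14 alveolar macrophage markers in the table, all were tested, and their summed level was 6790 to 8600 CPM in Sdha-KO and 8150 to 9580 CPM in WT libraries. The markers went both ways, with 5 positive and 9 negative fitted log2 fold changes, 2 wholly above WT in Sdha-KO (Car4 and Fabp5) and 4 wholly below (Ear1, Ear2, Krt79 and Siglecf). The log2 fold change was 1.15 for Car4 (edgeR adjusted p = 0.851) and 0.83 for Fabp5 (adjusted p = 1.0). The ribonuclease Ear1 was the 1 of the 14 that passed, and fell in Sdha-KO (132 ± 17.7 CPM in Sdha-KO and 633 ± 92.1 CPM in WT, SD, n = 3 each; edgeR adjusted p = 0.0261). Siglecf, the sorting marker, had no count in Sdha-KO replicate 1 and was at 39.6 and 45.3 CPM in Sdha-KO replicates 2 and 3, against 103, 138 and 132 CPM in WT. In bulk RNA, fewer cells of a type and less RNA per cell cannot be told apart.

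**Figure D1:**
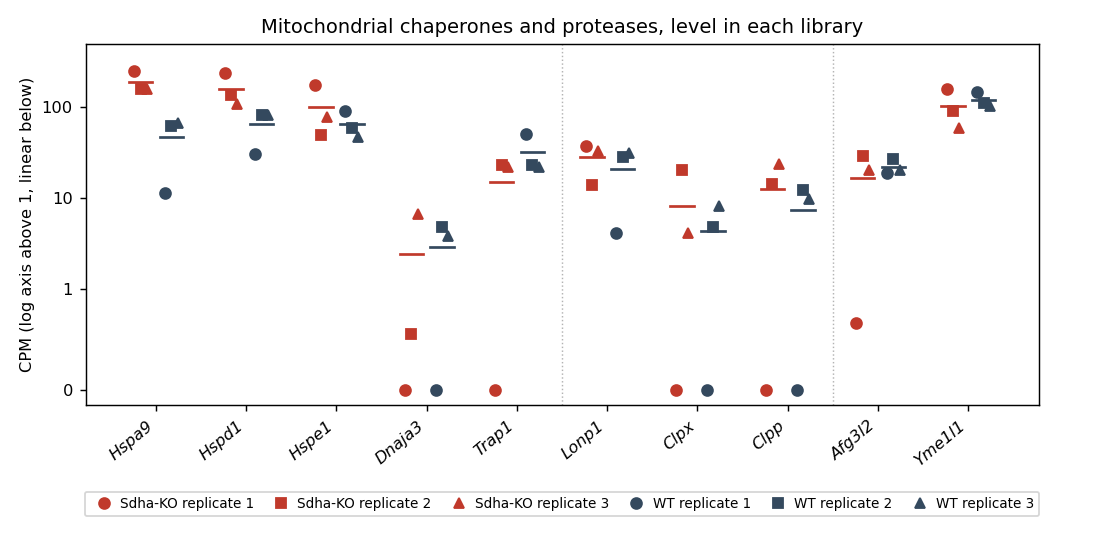
CPM of each gene in each library (log axis above 1 CPM, linear below), with Sdha-KO left of WT, marker shape giving the replicate number and bars giving the mean of 3 libraries. The points of Sdha-KO lie above all points of WT for Hspa9 and Hspd1, and Dnaja3, Clpx and Clpp are at 0 in both batch 1 libraries.

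Hspd1 and Hspe1 are neighbours on chromosome 1 that point away from each other, and share the DNA between their starts. In the RefSeq promoter table (GRCm38.p6) the start of Hspe1 (55088148, plus strand) lies 216 bases from one Hspd1 start (55087932, minus strand), and a second Hspd1 start lies at 55088243. The window of Hspe1, from 250 bases before its start through the first 50 bases from the start on (chr1:55087898-55088197, plus strand), is shown because both genes read out from it. Capitals mark the letters GAANNTTC, a dyad of the element that heat shock factors bind.
Hspe1 promoter window: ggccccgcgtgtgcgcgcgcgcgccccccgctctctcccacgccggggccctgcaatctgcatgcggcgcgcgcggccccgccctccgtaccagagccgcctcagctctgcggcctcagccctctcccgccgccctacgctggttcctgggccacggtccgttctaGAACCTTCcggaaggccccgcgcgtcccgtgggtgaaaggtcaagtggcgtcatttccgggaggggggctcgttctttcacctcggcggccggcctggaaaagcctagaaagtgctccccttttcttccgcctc
The dyad lies at bases 167 to 174 of the window, 77 bases before the Hspe1 start and 132 bases from the nearer Hspd1 start. GAANNTTC occurs in 7.86% of the 32851 promoter windows in the table. Of the 10 genes, 8 had windows there, 9 windows in all, and Hspa9 and Afg3l2 had no entry. The dyad was in 2 of these 9 windows, those of Hspe1 and of the overlapping Hspd1 start. The letters TGATGCAA, a composite that CHOP and ATF4 can bind, were in none of the 9 and in 0.895% of all windows. The cyclic AMP response element TGACGTCA was in the Trap1 window and in 1.79% of all windows. The GC box GGGCGG was in 7 of the 9 and in 35.7% of all windows, and the CCAAT box was in 4 of the 9 and in 37.4%. Both strands were searched, and a match describes letters, not binding.

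Hspa9, the ATP-driven motor of matrix import and the Hsp70 of the organelle, showed the widest separation of the 10. It had 2999, 863 and 1082 counts in Sdha-KO replicates 1 to 3, against 94, 281 and 536 counts in WT replicates 1 to 3. Scaled, these were 250, 160 and 161 CPM in Sdha-KO and 11.5, 62.4 and 68.2 CPM in WT. All Sdha-KO libraries lay above all WT libraries, and the lowest value by far was that of WT replicate 1. The mean was 191 ± 51.6 CPM in Sdha-KO and 47.4 ± 31.2 CPM in WT libraries (SD, n = 3 each), a fitted 4.03-fold difference. The log2 fold change was 2.01 (SE 0.621, 95% interval 0.66 to 3.36), with an unadjusted edgeR p of 0.00705 and an adjusted p of 1.0 over all 9963 genes. With the same values, an exact two-sided permutation test gave p = 0.1, which is as low as 3 libraries a side allow.

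Within batches the Hspa9 ratio of Sdha-KO over WT was 21.7 in batch 1 (95% counting interval 17.7 to 27), 2.57 in batch 2 (2.25 to 2.96) and 2.36 in batch 3 (2.13 to 2.63). The batch 2 and batch 3 ratios lay within each other's intervals, and the batch 1 ratio lay far above both. Counting intervals cover counting error only. They may be too narrow even for that, since reads without molecular identifiers are not independent molecules. Without both batch 1 libraries the log2 fold change was 1.31 (SE 0.265), a 2.48-fold difference, with adjusted p = 0.145. With the replicate block as well, Hspa9 passed (edgeR adjusted p = 0.00634), in a fit that called 3.01% of 10757 genes and has 1 residual degree of freedom among its 4 libraries. Hspa9 was the 1 member of the 10 called there. In those 4 libraries sex markers also differ by genotype. Xist, made in females, had 498 and 822 counts in Sdha-KO and 4608 and 6055 in WT, and Y-linked Ddx3y had 354 and 432 counts in Sdha-KO and 0 and 143 in WT. In batch 1 they differ the other way, with 2683 Xist and 0 Ddx3y counts in Sdha-KO and 0 and 222 in WT. Genotype and the sex of the mice cannot be told apart in the 4 libraries.

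Hspd1, the chaperonin that encloses matrix proteins, had 2847, 735 and 736 counts in Sdha-KO and 248, 369 and 657 counts in WT replicates 1 to 3. In CPM it was at 238, 137 and 110 in Sdha-KO and at 30.4, 81.9 and 83.6 in WT, with means of 161 ± 67.4 in Sdha-KO and 65.3 ± 30.3 in WT (SD, n = 3 each). The genotypes did not overlap, and the lowest Sdha-KO library was 1.31-fold above the WT library of its batch (batch 3, counting interval 1.18 to 1.46). The ratio was 1.67 in batch 2 (1.47 to 1.90) and 7.82 in batch 1 (6.86 to 8.94). The fitted log2 fold change was 1.3 (SE 0.535, 95% interval 0.14 to 2.47), with an unadjusted edgeR p of 0.0312 and an adjusted p of 1.0. Without both batch 1 libraries it was 0.58 (SE 0.278, adjusted p = 0.533).

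No overlap with Sdha-KO above was a property of 2 of the 10 genes, Hspa9 and Hspd1, and of 5.04% of all tested genes. No member lay wholly below, against 9.27% of all tested genes. The same 2 genes were the members higher in Sdha-KO in all 3 batches, as were 11.4% of all tested genes. They were also the 2 members with an unadjusted edgeR p under 0.05 and a higher level in Sdha-KO, which held for 1.36% of all tested genes. A gene with no count in Sdha-KO replicate 1 cannot lie wholly above WT or be higher in all 3 batches. That library was at 0 for 69.4% of genes averaging 30 to 100 counts in batches 2 and 3. It was at 0 for 12.4% of those averaging 300 to 1000, the range of Hspa9 and Hspd1. The shares of all tested genes are thus not matched for level.

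Hspe1, the lid of the Hspd1 barrel, did not follow its partner in every batch. It had 2103, 267 and 529 counts in Sdha-KO and 752, 267 and 373 counts in WT, which were 175, 49.7 and 78.8 CPM in Sdha-KO and 92.2, 59.3 and 47.5 CPM in WT. The genotypes overlapped. The ratio within batches was 1.90 (1.75 to 2.07), 0.838 (0.705 to 0.997) and 1.66 (1.45 to 1.90) in batches 1 to 3, and the fitted log2 fold change was 0.61 (SE 0.597, adjusted p = 1.0). Read from the same libraries, there were 1.35, 2.75 and 1.39 Hspd1 counts per Hspe1 count in Sdha-KO replicates 1 to 3 and 0.330, 1.38 and 1.76 in WT replicates 1 to 3. The ratios overlapped between genotypes (log2 difference 0.90, exact two-sided permutation p = 0.5), and WT replicate 1 stood lowest. In the GENCODE M21 annotation 112 exonic bases are shared between the genes on opposite strands, 4.24% of those of Hspd1 and 7.60% of those of Hspe1. The annotation also names 5 pseudogene copies of Hspd1, 6 of Hspe1 and 1 of Hspa9, none with a row in the table, so where reads of such copies were counted is not known here.

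**Figure D2:**
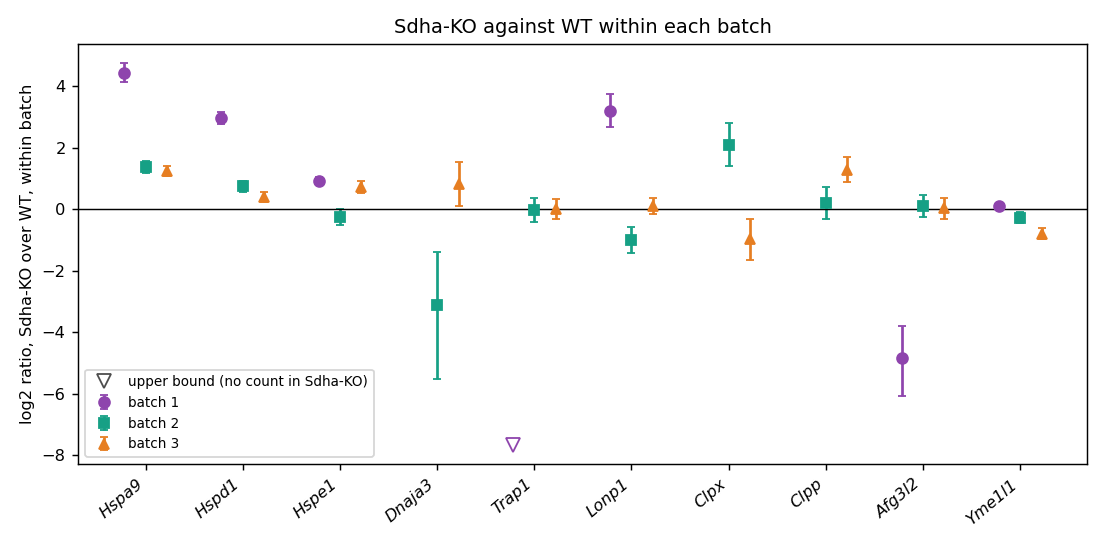
log2 ratio of Sdha-KO over WT within each batch for the 10 genes, with 95% counting intervals. The open triangle is the bound with 3 counts taken where Sdha-KO had none, and pairs with no count in either library are left out. Hspa9 and Hspd1 lie above 0 in all 3 batches, while Trap1 and Afg3l2 lie near 0 in batches 2 and 3 and far below it in batch 1.

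The remaining folding chaperones overlapped between genotypes. Trap1, the Hsp90 of the matrix, had 0, 124 and 147 counts in Sdha-KO and 413, 105 and 173 counts in WT, which were 0, 23.1 and 21.9 CPM in Sdha-KO and 50.6, 23.3 and 22 CPM in WT. In batch 1 it was 202-fold lower in Sdha-KO if the 0 is taken as 3 counts, and the 95% counting interval began at 164-fold. Of genes averaging 100 to 300 counts in batches 2 and 3, 41.9% likewise had no count in Sdha-KO replicate 1. In batches 2 and 3 the ratios were 0.990 (0.757 to 1.3) and 0.995 (0.793 to 1.25), so those libraries were level within counting error, although all 3 ratios were under 1, as they were for 19.9% of all tested genes. The fitted log2 fold change over 6 libraries was -1.09 (SE 1.84, 95% interval -5.10 to 2.91), and the 95% interval from batches 2 and 3 alone ran from -1.16 to 1.16. Of its exonic bases 2.10% are shared with Dnase1 on the other strand.

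Dnaja3 (Tid1), the J-domain partner that stimulates Hspa9, was the scarcest of the 10. It had 0, 3 and 45 counts in Sdha-KO and 0, 22 and 30 in WT replicates 1 to 3. Both batch 1 libraries were at 0, as they were for 64.6% of genes averaging 10 to 30 counts in the other 4 libraries. The ratio was 0.114 in batch 2 (0.0219 to 0.380) and 1.76 in batch 3 (1.08 to 2.89), in opposite directions, and the fitted log2 fold change was -0.26 (SE 2.68). Its exons overlap those of Vasn on the same strand and Coro7 on the other, so its small count is uncertain.

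The matrix proteases did not separate the genotypes. Lonp1, the ATP-dependent protease that clears oxidised and unassembled matrix proteins, had 455, 76 and 225 counts in Sdha-KO and 34, 128 and 246 counts in WT, or 38.0, 14.1 and 33.5 CPM in Sdha-KO and 4.17, 28.4 and 31.3 CPM in WT. Sdha-KO was higher in batch 1 (ratio 9.11, 6.43 to 13.3), lower in batch 2 (0.498, 0.370 to 0.666) and level within counting error in batch 3 (1.07, 0.890 to 1.29). The fitted log2 fold change was 0.42 (SE 1.43, adjusted p = 1.0), and it was -0.31 without both batch 1 libraries.

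Clpx, the unfoldase that feeds the Clp protease, had 0, 111 and 28 counts in Sdha-KO and 0, 22 and 64 counts in WT, and its ratios in batches 2 and 3 lay on opposite sides of 1, at 4.23 (2.66 to 7.02) and 0.512 (0.316 to 0.810). Clpp, the proteolytic chamber of the same complex, had 0, 77 and 161 counts in Sdha-KO and 0, 56 and 78 counts in WT. Its ratio was 1.15 in batch 2 (0.806 to 1.66) and 2.42 in batch 3 (1.83 to 3.21). The fitted log2 fold changes were 0.93 for Clpx (SE 2.59) and 0.78 for Clpp (SE 2.47). No count in either batch 1 library was seen for 3 of the 10 genes, Dnaja3, Clpx and Clpp, and for 19.2% of all tested genes. The 95% intervals of their fitted log2 fold changes ran from -6.09 to 5.57, -4.71 to 6.56 and -4.61 to 6.16, so the 6 libraries could not resolve differences of the size seen for Hspa9 in these 3 genes.

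The inner membrane proteases also overlapped between genotypes. Yme1l1, whose catalytic side faces the intermembrane space and which processes OPA1 (known mainly from human and mouse cells), had 1912, 496 and 400 counts in Sdha-KO and 1219, 502 and 815 in WT. These were 160, 92.2 and 59.6 CPM in Sdha-KO and 149, 111 and 104 CPM in WT. Sdha-KO was 0.575 of WT in batch 3 (0.508 to 0.648), 0.828 in batch 2 (0.730 to 0.939) and 1.07 in batch 1 (0.994 to 1.15). The fitted log2 fold change was -0.23 (SE 0.489, 95% interval -1.29 to 0.84). It was 0.15 when libraries were scaled by their totals alone, so with 6 libraries its sign depends on the scaling. Without both batch 1 libraries it was -0.49 (SE 0.32, 95% interval -1.24 to 0.25, edgeR adjusted p = 0.7). Afg3l2, which faces the matrix and also matures mitochondrial ribosomes, had 8, 156 and 139 counts in Sdha-KO and 155, 122 and 160 in WT. Its ratio was 0.0351 in batch 1 (0.0149 to 0.0710), 1.07 in batch 2 (0.840 to 1.37) and 1.02 in batch 3 (0.804 to 1.28). The fitted log2 fold change was -0.40 (SE 1.70). As with Trap1, a very low value in Sdha-KO replicate 1 stood beside values level within counting error in the other 2 batches.

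**Figure D3:**
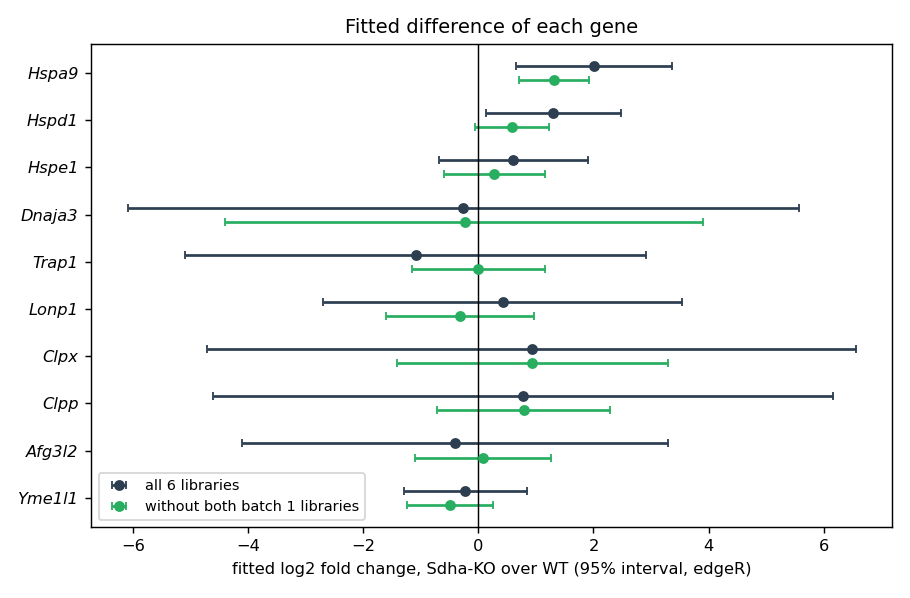
Fitted log2 fold change of Sdha-KO over WT for each gene with its 95% interval (edgeR), fitted on 6 libraries and on the 4 of batches 2 and 3. The intervals of Hspa9 lie above 0 in both fits, those of Hspd1 in the fit with 6 libraries, and the interval of Dnaja3 is the widest in the 4-library fit.

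All 10 are protein coding genes of the nuclear genome, placed here by GENCODE M21 on mm10. The chaperones are Hspa9 at chr18:34937414-34954357 (minus strand), Hspd1 at chr1:55077835-55088243 (minus strand), Hspe1 at chr1:55088132-55091307 (plus strand), Dnaja3 at chr16:4639989-4707695 (plus strand) and Trap1 at chr16:4039971-4077827 (minus strand). The proteases are Lonp1 at chr17:56614297-56626887 (minus strand), Clpx at chr9:65294260-65330658 (plus strand), Clpp at chr17:56990305-56996188 (plus strand), Afg3l2 at chr18:67404764-67449172 (minus strand) and Yme1l1 at chr2:23156369-23199260 (plus strand).

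By level, the 10 genes formed a graded series from 113 to 3.99 CPM. Reads come from transcript 3′ ends, so CPM can be set side by side without a correction for length. Averaged over batches 2 and 3, where the libraries were most complete, the order was Hspa9 (113 CPM), Hspd1 (103), Yme1l1 (91.8), Hspe1 (58.8), Lonp1 (26.8), Afg3l2 (24.3), Trap1 (22.6), Clpp (15.2), Clpx (9.46) and Dnaja3 (3.99). Lonp1, Afg3l2 and Trap1 were within their spread of each other. In the Sdha-KO libraries of these batches Hspa9 averaged 161 CPM and Yme1l1 75.9, and in the WT libraries Hspa9 averaged 65.3 and Yme1l1 108, so the most abundant of the 10 differed between genotypes.

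Ratios of counts within a library need no scaling between libraries. The following 5 ratios, that of Hspd1 to Hspe1 included, were chosen after the values were seen. There were 0.541, 0.339 and 0.364 Hspa9 counts per count of Hspa8, the constitutive Hsp70 of the cytosol, in Sdha-KO replicates 1 to 3, and 0.0136, 0.188 and 0.142 in WT replicates 1 to 3. Against Hspa5 (BiP), the Hsp70 of the endoplasmic reticulum, the ratios were 0.233, 0.157 and 0.172 in Sdha-KO and 0.00846, 0.0709 and 0.0697 in WT. Neither ratio overlapped between genotypes. The log2 differences were 2.51 for Hspa8 and 2.41 for Hspa5 (exact two-sided permutation p = 0.1 each, and 0.167 adjusted over the 5 ratios). Both ratios, and that of Lonp1 to Hspa9 below, contain Hspa9, which by itself separated the genotypes. They were chosen with that known, a choice the adjustment does not cover, and add no separate evidence.

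Per count of Hspa9, Lonp1 had fewer counts in each Sdha-KO library than in any WT library. There were 0.152, 0.0881 and 0.208 Lonp1 counts per Hspa9 count in Sdha-KO replicates 1 to 3, against 0.362, 0.456 and 0.459 in WT replicates 1 to 3. The separate levels of both genes differed most in batch 1, and the ratio did not (log2 difference -1.59, exact two-sided permutation p = 0.1, adjusted 0.167). Tcp1, a subunit of the cytosolic chaperonin, itself lay higher in every Sdha-KO library, at 123, 47.6 and 68.3 CPM in Sdha-KO and 22.3, 43.9 and 47.2 CPM in WT (log2 fold change 1.07, edgeR adjusted p = 1.0). The ratio of Hspd1 to Tcp1 overlapped between genotypes, at 1.94, 2.87 and 1.61 in Sdha-KO and 1.36, 1.86 and 1.77 in WT (log2 difference 0.33, exact two-sided permutation p = 0.4).

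**Figure D4:**
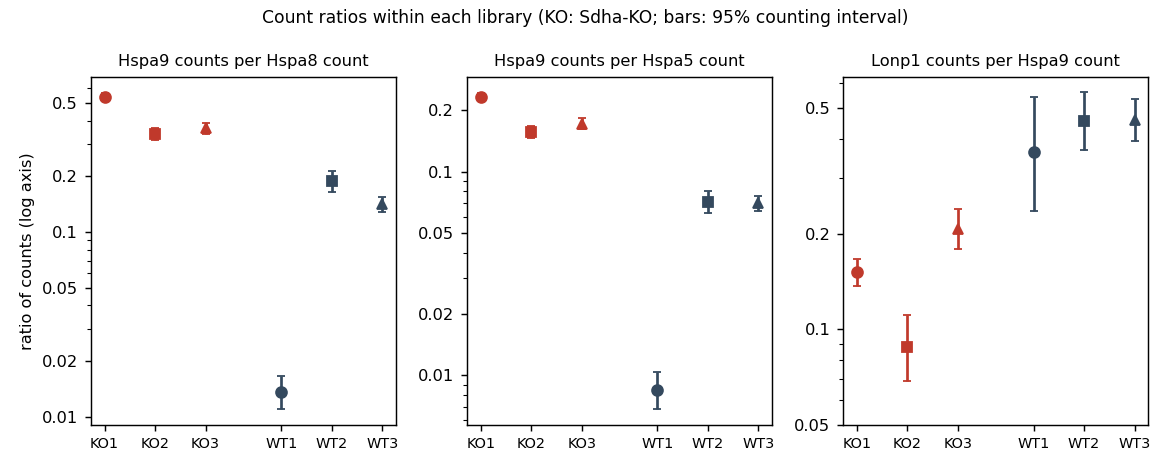
Ratios of counts within each library (log axis), Sdha-KO (KO1 to KO3) left of WT (WT1 to WT3), with 95% counting intervals. Hspa9 per Hspa8 and Hspa9 per Hspa5 are higher in every Sdha-KO library than in any WT library, and Lonp1 per Hspa9 is lower. The ratios of Hspd1 to Hspe1 and to Tcp1, which overlapped between genotypes, are not drawn.

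Other genes of mitochondrial protein quality control were counted in the same fit, and none passed in either direction in any of the lists that follow. Of 9 tested further chaperones and cochaperones of the organelle, 4 were positive and 5 negative, with a median log2 fold change of -0.11. Grpel1, the nucleotide exchange factor of Hspa9, was at 50.7, 7.81 and 16.5 CPM in Sdha-KO and 51.2, 33.1 and 18.6 CPM in WT. Dnajc11, of the cristae-organising machinery, was at 0, 30.1 and 19.2 CPM in Sdha-KO and 35.2, 16.4 and 20.9 CPM in WT. Of 15 tested further proteases and scaffolds, 8 were positive and 7 negative (median 0.06). The prohibitin gene Phb2, which forms the scaffold around the inner membrane proteases, was at 89.7, 61.9 and 73.3 CPM in Sdha-KO and 103, 53.3 and 53.5 CPM in WT, and the rhomboid protease gene Parl at 24.5, 94.3 and 71.1 CPM in Sdha-KO and 90.2, 86.5 and 67.2 CPM in WT.

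The import machinery that delivers chains to Hspa9 had 13 positive and 9 negative genes of 22 tested (median 0.32). Tomm7, of the outer membrane translocase, was at 283, 182 and 128 CPM in Sdha-KO and 180, 114 and 125 CPM in WT, and Tomm6 at 168, 113 and 117 CPM in Sdha-KO and 76.6, 103 and 116 CPM in WT. Timm44, which tethers Hspa9 to the import channel, and Pam16, which regulates the motor's J-domain protein, were picked out after their values were seen, because each separated the genotypes and they did so in opposite directions. Timm44 was at 116, 56.5 and 30.6 CPM in Sdha-KO and 4.66, 29.5 and 23.8 CPM in WT (log2 fold change 1.81, SE 0.993, edgeR adjusted p = 1.0). Pam16 was at 0.417, 10.4 and 17.3 CPM in Sdha-KO and 96.8, 24.9 and 33.4 CPM in WT (-2.46, SE 1.47, adjusted p = 1.0).

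Among 15 tested regulators of the stress response, 10 were positive and 5 negative (median 0.42). Atf4 was at 530, 564 and 497 CPM in Sdha-KO and 344, 361 and 290 CPM in WT, with no overlap and a narrow spread (log2 fold change 0.68, SE 0.294, edgeR adjusted p = 1.0). Cebpb was at 449, 399 and 374 CPM in Sdha-KO and 406, 437 and 290 CPM in WT. Atf5 and Ddit3 were added after their values were seen, as the other factors named for this response. Atf5 was at 424, 46.1 and 93.2 CPM in Sdha-KO and 75.4, 12.6 and 21.1 CPM in WT, higher in Sdha-KO within each batch although the groups overlapped across batches (log2 fold change 2.37, SE 0.956, adjusted p = 1.0). Ddit3 was at 41.8, 42.2 and 56.8 CPM in Sdha-KO and 14.0, 42.6 and 39.9 CPM in WT.

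Chaperones of other compartments gave no called gene. Of 26 cytosolic chaperones 16 were positive and 10 negative (median 0.23), with Hsp90ab1 at 2410, 2270 and 2360 CPM in Sdha-KO and 3520, 1690 and 2280 CPM in WT. Hsp90aa1 was at 373, 402 and 1190 CPM in Sdha-KO and 352, 318 and 801 CPM in WT. Of 12 chaperones of the endoplasmic reticulum 2 were positive and 10 negative (median -0.39). Hspa5 was at 1070, 1020 and 939 CPM in Sdha-KO and 1360, 879 and 978 CPM in WT, and the lectin chaperone Calr was at 764, 956 and 630 CPM in Sdha-KO and 1380, 900 and 981 CPM in WT.

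**Figure D5:**
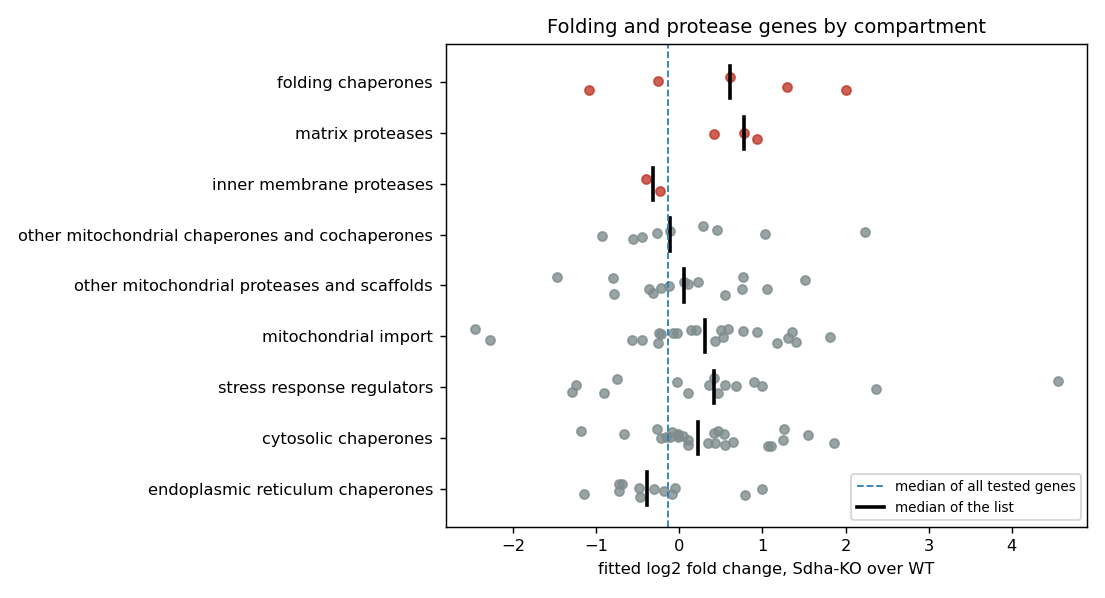
Fitted log2 fold changes of Sdha-KO over WT for the tested genes of each list (points, spread vertically for legibility), with the list's median (black bar) and the median of all tested genes (dashed line, -0.13). The 10 genes described here are in red; medians run from -0.39 for chaperones of the endoplasmic reticulum to 0.78 for the 3 matrix protease genes.

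Markers of other cell types were read in the same libraries, and none of their genes passed the test. Summed levels did not overlap between genotypes for 2 lists, those of monocytes with interstitial macrophages and of lymphocytes. Markers of monocytes and interstitial macrophages were positive in 7 of 7 tested genes, with a summed level of 79.5 to 228 CPM in Sdha-KO and 30.4 to 54.1 CPM in WT libraries, and Folr2 of that list was at 0 throughout. Ccr2 was the 1 of the 7 that lay wholly above WT, at 79.0, 27.7 and 68.1 CPM in Sdha-KO and 5.39, 13.1 and 21.5 CPM in WT. It made up nearly all of the sum of 79.5 CPM in Sdha-KO replicate 1, where Itgam and Cx3cr1 were at 0. Itgam, the gene of the CD11b that cells were sorted against, overlapped between genotypes. It was at 0, 35.3 and 22.5 CPM in Sdha-KO replicates 1 to 3 and 9.8, 7.32 and 1.4 CPM in WT replicates 1 to 3. The lymphocyte list summed to 74.2 to 197 CPM in Sdha-KO and 282 to 524 CPM in WT (1 of 6 positive), of which Cd2 held the larger part. The dendritic cell list overlapped, at 5.17, 85.7 and 200 CPM in Sdha-KO and 20, 15.8 and 38.6 CPM in WT (4 of 5 tested genes positive). Granulocyte, epithelial, endothelial and stromal, and red cell lists also overlapped between genotypes. Immediate early genes, which tissue handling can induce, summed to 5660 to 7900 CPM in Sdha-KO and 4480 to 6610 CPM in WT (11 of 17 positive). The part of these cells and of handling in the Hspa9 and Hspd1 levels was not tested.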

How the data were processed

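The authors deposited 1 table of raw read counts per gene symbol, with 1 column per library. TRIzol RNA and a QuantSeq 3′ kit were used, per the labels' protocols. Per the submitters' processing notes, Bowtie2 and bedtools were used on mm10. The sources used here do not give versions, annotation, strand use or the handling of reads with several matches. Genotypes were compared on these counts with edgeR 4.0.16 in R 4.3.3 (quasi-likelihood F-test, robust, with genotype as the only term, TMM scaling and filterByExpr at a minimum of 10 counts, Benjamini-Hochberg over all 9963 tested genes, threshold 0.05). The SE is the log2 fold change divided by the square root of F. Of 23282 rows, 44 repeat a symbol and were kept apart. Fits were checked on counts simulated with less spread between libraries than these data have, and without the missing genes of batch 1. That check does not show how the fit behaves on these libraries. Ratios within batches use scaled counts with exact 95% binomial intervals, and a count of 0 allows up to 3 counts. Permutation tests of ratios used scipy 1.17.1. Alternatives included DESeq2 1.42.0 and limma-voom 3.58.1.

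The labels give the replicate number again as the batch, so it pairs the libraries. Deviations from the group means correlated at 0.150, 0.124 and 0.114 for same-numbered libraries and at -0.149 to 0.100 for others. The labels do not say whether a library is 1 mouse, and the p-values cover library-to-library spread, which may be technical. Sdha-KO replicates 2 and 3 and WT replicate 3 each had counts of both Xist and Ddx3y, and why was not tested. Members, lists and alternatives were chosen with earlier results of these data known. From other lists the text names genes past the threshold, or else the 2 most abundant, and says where a gene was chosen later. Dele1 was read from its older symbol 0610009O20Rik. Positions are GENCODE M21 and promoter windows RefSeq GRCm38.p6. Cell type markers and other lists not named by gene are given by their sums.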

Additional observations from a re-analysis of the deposited data

How the results depend on the processing

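The number of genes called over all genes was 5 with 6 libraries, 9 by library totals alone, 48 with no filter on low counts, 0 with at least 10 counts in all 3 libraries of a genotype, 21 with DESeq2, 20 with limma-voom, 0 with the replicate block, 27 with batch 1 left out and 324 with it left out and the replicate block added. Leaving out 1 library in turn gave 0 to 13, with 0 without WT replicate 1, when 340 genes had an unadjusted edgeR p under 0.05, against 263 with 6 libraries, 255 with the strict count minimum and 296 with the replicate block. Members called numbered 0 in each of these except with batch 1 left out and the block added, where Hspa9 was the 1 called. The strict count minimum dropped Dnaja3, Clpx and Clpp. The replicate block changed no other call of a member. The median log2 fold change of the members was 0.52 with 6 libraries, 0.86 by library totals, 0.14 with limma-voom, 0.18 with batch 1 left out, 0.16 with the block added to that, and 0.07 to 0.61 leaving out 1 library; the cause was not tested. The median of all tested genes was 0.05 by library totals, against -0.13.

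Hspa9 and Hspd1 kept the sign of their log2 fold change under every alternative run, Hspa9 at 1.54 to 2.37 and Hspd1 at 0.92 to 1.52 leaving out 1 library. Trap1 was negative, or 0 to 2 decimals with batch 1 left out. Signs turned for Yme1l1 (0.15 by library totals), Lonp1 (-0.31) and Afg3l2 (0.08) with batch 1 left out, and Lonp1 (-0.43) and Afg3l2 (0.07) with the block as well. Leaving out 1 library gave -0.07 to 0.81 for Lonp1, -3.35 to 0.33 for Dnaja3, -0.05 to 0.94 for Hspe1, -1.04 to 0.17 for Afg3l2, -1.03 to 1.75 for Clpx, -0.06 to 1.37 for Clpp and -0.68 to 0.05 for Yme1l1.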

Other observations

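Of the 99 tested genes in the 6 lists of other chaperones, proteases, import factors and stress regulators, 8 lay wholly above WT in Sdha-KO (8.08%, against 5.04% of all tested genes) and 3 wholly below (3.03%, against 9.27%). A gene with no count in Sdha-KO replicate 1 cannot lie wholly above WT. Such zeros were more frequent among genes with few counts, and the shares are not matched for level. Whether the lists differ from other genes of their level was not tested. The 8 were Ppif, Afg3l1, Tomm20, Timm44, Atf4, Tcp1, Cct6a and Stip1, and the 3 were Pam16, Pdia3 and Eif2ak4. They were picked out after their values were seen, and none passed the test (edgeR adjusted p = 1.0 each). Those not described with their values above follow. Ppif, the cyclophilin of the matrix, was at 17.9, 8.0 and 4.92 CPM in Sdha-KO replicates 1 to 3, against 0, 4.22 and 2.29 CPM in WT replicates 1 to 3. Afg3l1, a paralog of Afg3l2, was at 58.7, 40.2 and 40.4 CPM in Sdha-KO and 37.1, 25.7 and 32.2 CPM in WT. Tomm20, an import receptor, was at 20.9, 41.1 and 24.3 CPM in Sdha-KO and 3.92, 15.1 and 13.6 CPM in WT. Pdia3, a disulfide isomerase of the endoplasmic reticulum, lay lower in every Sdha-KO library, at 175, 189 and 296 CPM in Sdha-KO and 557, 388 and 521 CPM in WT. Eif2ak4 (GCN2), an amino acid sensing kinase, was at 17.5, 27 and 48.6 CPM in Sdha-KO and 103, 59.9 and 64.0 CPM in WT. Fitted log2 fold changes of Sdha-KO over WT were 1.55 for the chaperonin subunit gene Cct6a and 0.35 for Stip1, a cochaperone of Hsp70 and Hsp90. Spg7, the partner subunit of Afg3l2, overlapped, at 132, 23.2 and 48.1 CPM in Sdha-KO and 3.43, 45.0 and 49.4 CPM in WT.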
